A study of Arabidopsis thaliana with 36 samples.

Results

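The 26S proteasome was followed at the level of its subunit mRNAs: 45 Arabidopsis thaliana loci that encode the alpha ring (PAA to PAG), the beta ring (PBA to PBG), the ATPases of the base (RPT) and the other subunits of the regulatory particle (RPN). The loci were listed by subunit name, out of 37336 loci in the count tables. Of the 45 loci, 28 had enough counts to be tested and 17 did not. RNA came from whole 12-day-old seedlings kept for 6 h in water that held a chemical or the solvent alone (mock, DMSO), and was sequenced from the 3′ end. Wild type (WT) received 5 µg/ml of tunicamycin (Tm, which stops the first step of N-glycan synthesis), 2 mM of dithiothreitol (DTT, which breaks disulfide bonds), 5 mM of azetidine-2-carboxylate (AZC, a proline analogue that is built into proteins) or mock. The double knockouts bzip17/28, bzip28/60, bzip17/60 and s1p/s2p received Tm (5 µg/ml) or mock. bZIP17 and bZIP28 are transcription factors held in membranes until the proteases S1P and S2P cut them, and bZIP60 is made after its mRNA is spliced in response to misfolded protein in the endoplasmic reticulum (ER). Each of the 12 groups held 3 libraries. The alleles, and how many seedlings were pooled for a library, are not given in the sources used here.

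The proteasome is the protease of the cytosol and nucleus that destroys proteins tagged with ubiquitin. Its 20S core is a barrel of alpha rings outside and beta rings inside, with the cutting sites in the beta ring. The 19S regulatory particle sits on the barrel end, where RPN subunits bind and strip ubiquitin and the RPT ATPases unfold the protein and feed it in. Misfolded proteins of the ER are exported to the cytosol and degraded there by the proteasome. In Arabidopsis many subunits are encoded by a pair of genes, and the transcription factors NAC53 and NAC78 are known to raise subunit genes when proteasome activity is blocked.

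Libraries held 1278322 to 2810235 assigned counts (median 2011039). BIP1 (AT5G28540), an ER chaperone gene with a near-identical copy, used as a check of the treatments, rose in WT by a log2 change of 3.04 ± 0.15 with Tm, 3.01 ± 0.15 with DTT and 2.11 ± 0.14 with AZC. The mRNAs named by the genotypes were counted too. BZIP17 had 0 to 3 counts in the 12 libraries of its mutants and 5 to 33 in the other 24, BZIP28 had 0 to 30 and 26 to 122, and BZIP60 had 57 to 93 and 171 to 5380. S1P and S2P had at most 1 count in every library and check nothing. None of the 9 root and 9 shoot marker genes was at 0 in every library, and 8 of each had enough counts to be tested. PSAL, a shoot marker, had at most 1.65 CPM in any library. Throughout, a level is in CPM (counts scaled to a common library total) adjusted by TMM factors, a difference is edgeR's log2 fold change ± SE with n = 3 libraries per group, and p is edgeR's quasi-likelihood p adjusted by Benjamini-Hochberg over the 10480 genes tested. "Rose", "fell" and "called" mean an adjusted p under 0.05.

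Which members could be measured followed the annotation. Reads that matched 2 or more transcript models of a gene had been set aside by the counting, and the 17 members that failed the count filter all have 2 to 4 models. All 24 members with 1 model were tested, but 4 of the 21 with several models, namely PAD1, RPT4B, RPN7 and RPN11. Over all loci, 33.7% of those with 1 model and 14.6% of those with several were tested. The alpha ring had 7 of 12 members tested, the beta ring 4 of 11, the RPT ATPases 9 of 10 and the RPN subunits 8 of 12.

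The members below the filter had at most 5 counts in any library. Totals over all 36 libraries were 50 for PBC2 (AT1G77440), 44 for RPN6 (AT1G29150), 43 for PBF1 (AT3G60820), 9 for RPN8A (AT5G05780) and 8 each for PAE1 (AT1G53850) and PBA1 (AT4G31300). PAB1 (AT1G16470) had 7, PAB2 (AT1G79210) 6, PBD2 (AT4G14800) and PBE1 (AT1G13060) 5 each, RPN9A (AT5G45620) 4 and PAG1 (AT2G27020) 1. PAA2 (AT2G05840), PBB1 (AT3G27430), PBB2 (AT5G40580), RPT6A (AT5G19990) and RPN5A (AT5G09900) had 0 in every library. These low totals cannot be read as low expression, since the count of a gene with several models is cut by the counting itself. The catalytic subunits PBA1, PBB1 and PBB2 are among them, so of the cutting sites only PBE2, one of the genes for the chymotrypsin-like subunit, was measured. Totals of the 28 tested members ran from 221 for RPN11 (AT5G23540), the deubiquitylating subunit, to 16179 for PAF1 (AT5G42790), with a median of 3862.

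The upstream DNA of 4 members is shown because they are among the 6 members with a call below that was kept under every alternative, a choice made after the values were seen. The 120 bases before the annotated gene start were read by locus tag from the RefSeq genome TAIR10.1, 5′ to 3′ on the strand of the gene. The count tables hold no coordinates, so this build is not known to be the one used for counting. Capitals mark TGGGC or its complement GCCCA, the core of the sequence that NAC53 and NAC78 are known to bind in Arabidopsis.
PAF1, chr5:17161157-17161276, minus strand: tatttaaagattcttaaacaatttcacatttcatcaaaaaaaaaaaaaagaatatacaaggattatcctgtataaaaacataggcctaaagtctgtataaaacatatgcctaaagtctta
PAF2, chr1:17318999-17319118, plus strand: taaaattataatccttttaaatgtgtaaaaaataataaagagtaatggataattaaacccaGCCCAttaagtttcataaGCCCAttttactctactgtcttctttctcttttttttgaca
RPT3, chr5:23568932-23569051, plus strand: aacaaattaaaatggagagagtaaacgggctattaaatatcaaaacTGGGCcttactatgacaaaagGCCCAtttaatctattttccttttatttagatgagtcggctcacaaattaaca
RPT6B, chr5:6756513-6756632, plus strand: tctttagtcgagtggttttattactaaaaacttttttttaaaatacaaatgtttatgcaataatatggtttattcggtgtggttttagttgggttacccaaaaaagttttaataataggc
PAF2 and RPT3 held 2 matches each in these windows, and PAF1 and RPT6B held 0, so the copies PAF1 and PAF2 differ in this feature. In 250 bases before the start, TGGGC on either strand was present in 20 of the 45 members (44.4%), against 22.7% of 27443 protein-coding genes. Among genes tested for expression it was in 13 of the 28 members (46.4%), against 26.2% of 10175. The members held 47 matches, of which 44 lay within 120 bases of the start, and 15 members held 2 or more. These counts have no figure for all genes beside them. RPN1B had the most, 5, followed by RPN1A and RPN8A with 4 each. GAANNTTC, the core repeat bound by heat shock factors, was searched on both strands as well. It was present in 5 of the 45 members (11.1%), against 9.55% of protein-coding genes. Among genes tested for expression it was in 4 of the 28 members (14.3%), against 9.38%. By their letters the 2 motifs cannot share a base. A match is a run of letters and not a shown binding site, and these shares carry no test.

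Tm in WT moved 8 of the 28 tested members, 5 up and 3 down, or 28.6%, beside 16.8% of all genes tested (8.65% higher and 8.13% lower). The risers included alpha-ring and RPT genes, and the fallers were both PAF genes and RPN12A. The median log2 change of the 28 members was 0.27, against 0.03 for all genes, and the members ran from -0.93 to 0.94. The median size of a change was 0.37 in members and 0.35 in all genes. The WT Tm libraries differed from one another more than the libraries of any other group, where chi-square per degree of freedom between 2 libraries was 8.95 to 12.1 over all loci, beside at most 5.8 within any other group. With the WT Tm and mock libraries fitted alone 0 members were called (262 genes in all), and 2 with a spread per group (551 genes). In the same libraries 1 of 8 shoot markers was called higher with Tm, LHCB5 (AT4G10340, 0.53 ± 0.13, adjusted p = 0.00303), while 4 had an unadjusted p under 0.05 and DESeq2 called 2. The summed shoot markers were 13790 to 20220 CPM with Tm and 14270 to 15680 CPM in mock. The summed root markers were 116 to 133 CPM with Tm and 120 to 141 CPM in mock, with 1 of 8 called lower. The part of these shifts in the subunit values was not tested.

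PAF1 and PAF2 (AT1G47250) encode the same alpha-ring subunit. PAF2 had 19.3, 14.3 and 21.5 CPM with Tm, against 38.3, 38.7 and 30.1 CPM in mock. Every Tm library lay below every mock library, and the log2 change was -0.93 ± 0.21 (adjusted p = 0.00106). PAF1 (chromosome 5, 17159044 to 17161156, TAIR10.1) had 180, 84.8 and 129 CPM with Tm, against 201, 236 and 178 CPM in mock. Its groups touched, since the highest Tm library passed the lowest mock library, and the log2 change was -0.64 ± 0.16 (adjusted p = 0.00442). The call of PAF1 was lost without Tm library 2, its lowest, and over all alternatives tried its log2 change ran from -0.93 to -0.42.

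PAE2 (AT3G14290), another alpha-ring gene, had 30.8, 38.0 and 30.3 CPM with Tm, against 15.8, 21.4 and 14.5 CPM in mock. The groups did not overlap, and the log2 change of 0.94 ± 0.22 (adjusted p = 0.0016) was the largest rise among the members. PAD2 (AT5G66140), also of the alpha ring, had 47.0, 77.6 and 35.8 CPM with Tm, against 31.0, 35.2 and 26.2 CPM in mock. The groups lay apart by less than 1 CPM, with the highest value in Tm library 2. The log2 change of 0.78 ± 0.24 (adjusted p = 0.0176) was not called without Tm library 2 or mock library 1 or 3. PBG1 (AT1G56450) of the beta ring had 63.9, 88.7 and 93.6 CPM with Tm, against 48.7, 69.1 and 65.2 CPM in mock. These groups overlapped (log2 change 0.44 ± 0.15, adjusted p = 0.0345).

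In the regulatory particle, RPT5A (AT3G05530) had 148, 178 and 177 CPM with Tm, against 120, 125 and 129 CPM in mock. RPT2B (AT2G20140), one of the genes for the ATPase known to help open the core, had 54.7, 73.7 and 62.8 CPM with Tm, against 39.5, 54.6 and 36.2 CPM in mock. In both genes every Tm library was above every mock library, with log2 changes of 0.43 ± 0.13 (adjusted p = 0.0158) and 0.56 ± 0.17 (adjusted p = 0.0182). RPN12A (AT1G64520), a lid subunit, had 138, 101 and 100 CPM with Tm, against 151, 148 and 158 CPM in mock. It was lower in every Tm library, at -0.43 ± 0.13 (adjusted p = 0.0135). Without Tm library 2 the members called were 3, PAE2, PAF2 and RPN10. They were 4 without mock library 1 and 5 without mock library 3. Without Tm library 3 the calls of PBG1, RPT5A and RPN12A were lost.

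Members not called with Tm ran from -0.52 to 0.45 on the log2 scale. PAC1 (AT3G22110) of the alpha ring averaged 157 CPM with Tm and 143 CPM in mock. In the beta ring PBC1 (AT1G21720) averaged 119 CPM with Tm and 138 CPM in mock, and PBD1 (AT3G22630) 93.7 CPM with Tm and 119 CPM in mock. RPN10 (AT4G38630), a ubiquitin receptor, averaged 185 CPM with Tm and 143 CPM in mock (adjusted p = 0.0543). RPN2A (AT2G32730), a scaffold of the particle, averaged 147 CPM with Tm and 159 CPM in mock.

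**Figure D1:**
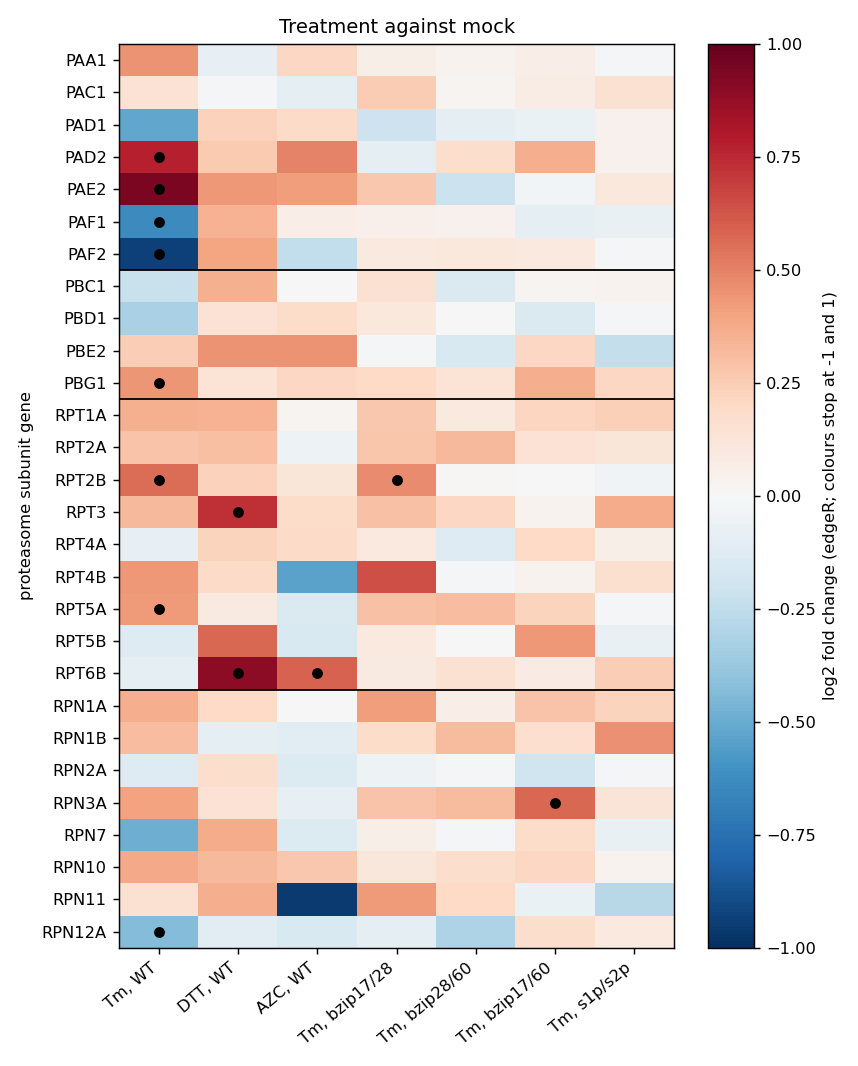
Colour map of log2 fold changes of treatment against mock for the 28 tested subunit genes (rows, grouped as alpha ring, beta ring, RPT and RPN) in 7 comparisons (columns). Dots mark an adjusted p under 0.05. The Tm column in WT holds 8 dots in both colours, the DTT column is mostly red with 2 dots, and the columns of Tm in the 4 mutants hold 2 dots in all.

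DTT in WT gave few calls. RPT3 and RPT6B rose, 2 of 28 members or 7.14%, beside 15.9% of all genes tested (8.93% higher and 6.97% lower). Log2 changes were positive in 24 of the 28 members (85.7%), called or not, and in 48.2% of all genes. PAA1, PAC1, RPN1B and RPN12A were the members below 0. The median was 0.25 in members and -0.02 in all genes. The medians were alike in the 4 classes, 0.26 in the alpha ring, 0.25 in the beta ring, 0.30 in the RPT genes and 0.19 in the RPN genes. These changes share 1 set of mock libraries and 1 set of DTT libraries, so the members are not independent of one another.

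RPT3 (AT5G58290, chromosome 5, 23569052 to 23571854, TAIR10.1) had 135, 126 and 149 CPM with DTT, against 83.3, 85.7 and 77.5 CPM in mock. The lowest DTT library was well above the highest mock library, and the log2 change was 0.73 ± 0.14 (adjusted p = 9.34e-05). RPT6B (AT5G20000, chromosome 5, 6756633 to 6759800) had 87.1, 97.5 and 87.3 CPM with DTT, against 45.0, 64.3 and 38.5 CPM in mock. Its groups did not overlap either (log2 change 0.89 ± 0.17, adjusted p = 6.15e-05). Both calls were kept under all 14 alternatives, with the log2 change between 0.67 and 0.79 for RPT3 and between 0.74 and 1.14 for RPT6B. Its copy RPT6A lies next to it on the chromosome (6751798 to 6755315) and had no counts, so reads that fit both genes may have been lost or given to one of them. That limit holds for every pair of near-identical subunit genes.

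Without DTT library 1 the number of members called with DTT was 4, and it was 2 or 3 without any other library. Among the members not called, PAF1 averaged 260 CPM with DTT and 205 CPM in mock, and its groups did not overlap (log2 change 0.35 ± 0.16, adjusted p = 0.132). PBC1 averaged 177 CPM with DTT and 138 CPM in mock (adjusted p = 0.0744), and RPT1A (AT1G53750) 107 CPM with DTT and 83.8 CPM in mock (adjusted p = 0.0817). RPN12A averaged 142 CPM with DTT and 152 CPM in mock. The summed level of the 9 root markers stood beside these values at 9.52 to 17.4 CPM with DTT and 120 to 141 CPM in mock, with 7 of the 8 tested markers called lower. Of the 8 shoot markers tested 0 were called by edgeR or DESeq2 and 1 had an unadjusted p under 0.05 (the sums were 13460 to 13880 CPM with DTT and 14270 to 15680 CPM in mock). In whole seedlings fewer cells of a type and less RNA per cell cannot be told apart, and the part of this shift in the subunit values was not tested.

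AZC in WT gave a single call. RPT6B rose, 1 of 28 members or 3.57%, beside 5.44% of all genes tested (3.23% higher and 2.2% lower). The median log2 change was 0.01 in members and 0.00 in all genes, with 14 members on each side of 0. RPT6B had 61.8, 77.7 and 81.9 CPM with AZC, against 45.0, 64.3 and 38.5 CPM in mock. These groups overlapped, and the log2 change of 0.59 ± 0.17 (adjusted p = 0.0244) was not called when AZC library 2 or 3 or mock library 1 or 3 was left out. RPN10 averaged 172 CPM with AZC and 143 CPM in mock, PAF1 214 CPM with AZC and 205 CPM in mock, and PBC1 138 CPM in both. The summed root markers were 51.1 to 56.7 CPM with AZC and 120 to 141 CPM in mock, with 6 of 8 called lower. Of the 8 shoot markers 0 were called by edgeR and 1 by DESeq2, with 2 at an unadjusted p under 0.05 (the sums were 15670 to 16990 CPM with AZC and 14270 to 15680 CPM in mock). HSP101 (AT1G74310), a cytosolic chaperone gene, rose by 4.85 ± 0.19 in the same libraries.

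**Figure D2:**
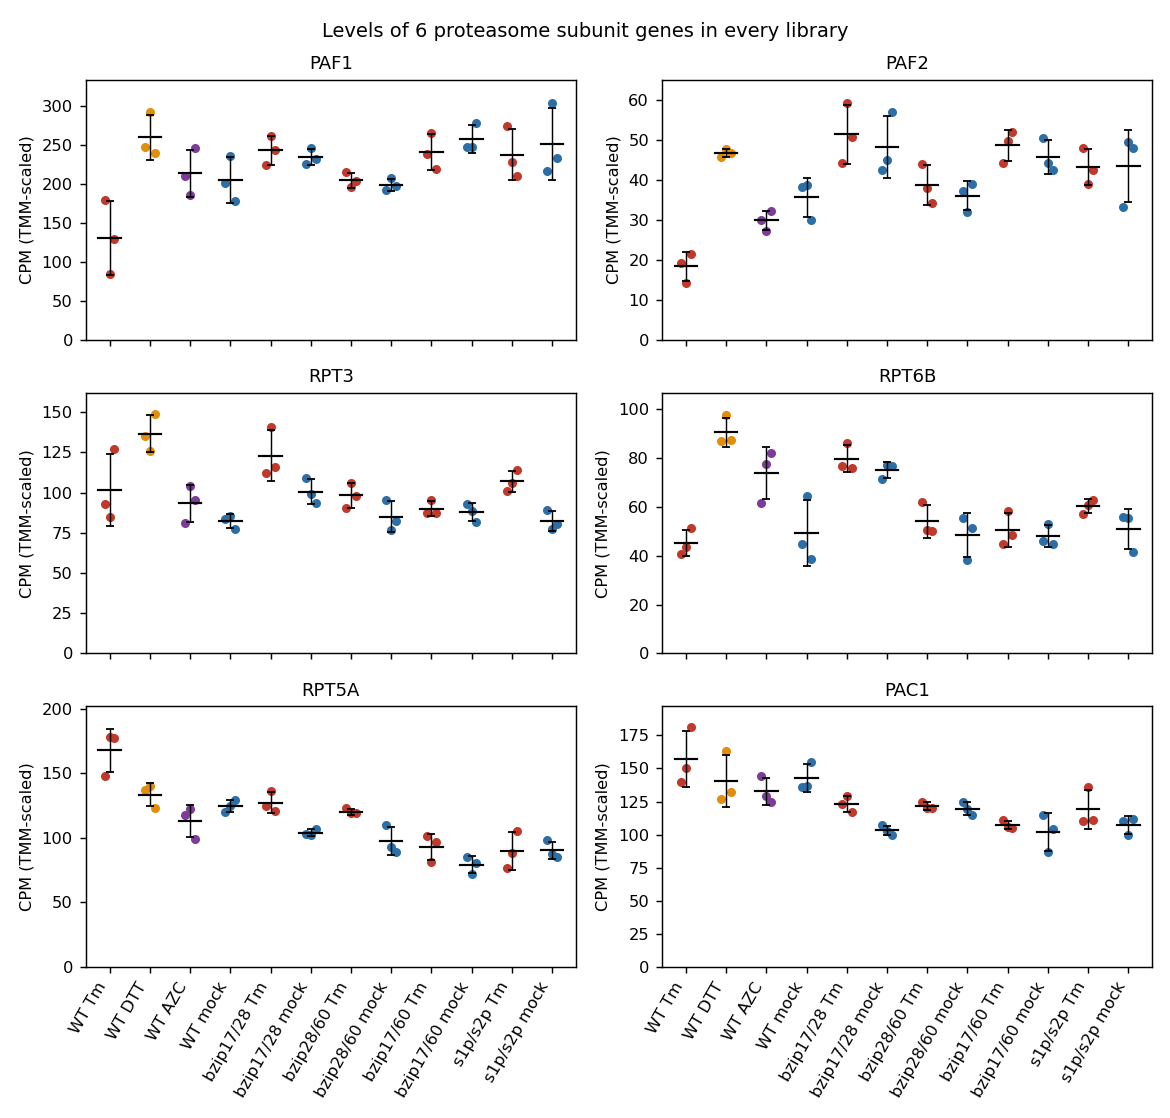
TMM-scaled CPM of 6 subunit genes in every library of the 12 groups. Each point is a library, the line is the group mean and the bars are 1 SD (n = 3). PAF1 and PAF2 are lowest in WT with Tm, RPT3 and RPT6B are highest in WT with DTT, and RPT5A and PAC1 are lower in most mutant groups than in WT mock.

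The 3 chemicals were also set against each other in WT, which asks where the members answer to them unequally. Tm differed from DTT in 10 of 28 members, 1 higher and 9 lower with Tm, or 35.7%, beside 23.9% of all genes. Tm differed from AZC in 7, 2 higher and 5 lower, or 25.0%, beside 18.3%. DTT differed from AZC in 3, all higher with DTT, or 10.7%, beside 17.3%. The 3 comparisons share their libraries in pairs, and their values stand side by side for that reason. The tissue markers differed between the chemicals as well. Tm against DTT had 6 of 8 root markers and 2 of 8 shoot markers called higher, with root sums of 116 to 133 CPM with Tm and 9.52 to 17.4 CPM with DTT. Tm against AZC had 5 of 8 root markers called higher, with root sums of 51.1 to 56.7 CPM with AZC. DTT against AZC had 3 of 8 root markers and 1 of 8 shoot markers called lower. Their part in the subunit values was not tested.

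Against DTT, PAF2 showed the widest difference. PAF2 had 19.3, 14.3 and 21.5 CPM with Tm, against 45.6, 47.8 and 46.8 CPM with DTT (log2 difference -1.33 ± 0.20, adjusted p = 1.54e-06). PAF1 had 180, 84.8 and 129 CPM with Tm, against 247, 293 and 240 CPM with DTT (-0.98 ± 0.16, adjusted p = 7.51e-06). RPT6B had 40.8, 43.6 and 51.2 CPM with Tm, against 87.1, 97.5 and 87.3 CPM with DTT (-0.99 ± 0.17, adjusted p = 1.44e-05). None of the 3 genes had overlapping groups, and all 3 calls were kept under all 14 alternatives.

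RPN7 (AT4G24820), a lid subunit, had 37.0, 27.7 and 14.9 CPM with Tm, against 45.6, 39.4 and 56.4 CPM with DTT (-0.86 ± 0.21, adjusted p = 0.00178). PAD1 (AT3G51260) of the alpha ring had 13.9, 10.3 and 12.7 CPM with Tm, against 15.4, 25.8 and 21.4 CPM with DTT (-0.75 ± 0.26, adjusted p = 0.0323). RPT5B (AT1G09100) had 13.9, 12.7 and 13.2 CPM with Tm, against 23.1, 19.4 and 22.2 CPM with DTT (-0.70 ± 0.25, adjusted p = 0.0374). The groups of these 3 genes lay apart. RPN7 and PAD1 have 2 transcript models, so only part of their reads was counted. Smaller differences in the same direction were called for PBC1 (-0.58), PBD1 (-0.47) and RPT3 (-0.41), with overlapping groups. PAA1 (AT5G35590) was the member higher with Tm (43.9, 84.8 and 68.3 CPM, against 42.7, 58.8 and 34.1 CPM with DTT, 0.53 ± 0.19, adjusted p = 0.0327). Its groups overlapped, and the call was lost in 7 of 14 alternatives, among them those without Tm library 2 or 3 or DTT library 1 or 3, with the log2 difference between 0.30 and 0.74. The call of RPT5B was lost in 8 of 14 alternatives and that of PAD1 in 6 of 13, in both genes also without Tm library 2 or 3 or DTT library 3. That of RPN7 was lost without Tm library 3. Without Tm library 2 the number called was 5 and without DTT library 3 it was 6. It was 3 with these 6 libraries fitted alone and 5 with a spread per group.

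Against AZC, the calls of PAF1 and RPT5A were lost in 1 alternative, the 6 libraries fitted alone. PAF1 averaged 132 CPM with Tm and 214 CPM with AZC (-0.70 ± 0.16, adjusted p = 0.00147). RPT5A had 148, 178 and 177 CPM with Tm, against 118, 122 and 99.3 CPM with AZC (0.57 ± 0.13, adjusted p = 0.00118). RPT6B averaged 45.2 CPM with Tm and 73.8 CPM with AZC (-0.69 ± 0.17, adjusted p = 0.00317). PAF2 had 19.3, 14.3 and 21.5 CPM with Tm, against 30.1, 27.3 and 32.2 CPM with AZC (-0.68 ± 0.21, adjusted p = 0.0177). The groups of these 4 genes did not overlap. PAD1 (-0.71), PBD1 (-0.51) and RPN3A (AT1G20200, a lid subunit, 0.49) were called too, with adjusted p of 0.0491, 0.0245 and 0.0428. Their calls were lost in 9 of 13, 4 of 14 and 8 of 14 alternatives. The call of PAF2 was lost without Tm library 2 or AZC library 3. The number called was 12 without Tm library 1, 4 without AZC library 1 or 3, 0 with these libraries alone and 2 with a spread per group. The matching counts over all genes are not given here.

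DTT against AZC called PAF2, RPT3 and RPT5B. PAF2 had 45.6, 47.8 and 46.8 CPM with DTT, against 30.1, 27.3 and 32.2 CPM with AZC (0.64 ± 0.18, adjusted p = 0.00993). RPT3 had 135, 126 and 149 CPM with DTT, against 81.2, 104 and 95.3 CPM with AZC (0.55 ± 0.14, adjusted p = 0.00326). Both sets of groups were apart, and both calls were kept under all 14 alternatives. RPT5B had 23.1, 19.4 and 22.2 CPM with DTT, against 11.8, 16.8 and 10.7 CPM with AZC (0.73 ± 0.25, adjusted p = 0.0355), a call lost without DTT or AZC library 1 or 3. RPT6B was not called between DTT and AZC (90.7 CPM with DTT and 73.8 CPM with AZC, 0.30 ± 0.16, adjusted p = 0.199).

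Copies of 1 subunit did not always carry the same values. Among the 45 loci 6 pairs had both copies tested, and the comparison was chosen after the values were seen. With Tm in WT the PAD pair had log2 changes of -0.52 ± 0.27 (PAD1, not called) and 0.78 ± 0.24 (PAD2, called). The RPT5 pair had 0.43 ± 0.13 (RPT5A, called) and -0.13 ± 0.27 (RPT5B). The RPT2 pair had 0.29 ± 0.16 (RPT2A, AT4G29040) and 0.56 ± 0.17 (RPT2B, called), and the RPN1 pair 0.36 ± 0.17 (RPN1A, AT2G20580) and 0.31 ± 0.23 (RPN1B, AT4G28470). The RPT4 pair had -0.08 ± 0.20 (RPT4A, AT5G43010) and 0.43 ± 0.39 (RPT4B, AT1G45000). Both PAF copies fell. RPT1A, RPN2A and RPN3A have a tested copy outside the 45 loci. With Tm these pairs had 0.36 ± 0.14 (RPT1A) and 0.07 ± 0.42 (RPT1B, AT1G53780), -0.13 ± 0.14 (RPN2A) and 0.13 ± 0.19 (RPN2B, AT1G04810), and 0.40 ± 0.17 (RPN3A) and 0.86 ± 0.30 (RPN3B, AT1G75990, called). Differences between copies were not tested.

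**Figure D3:**
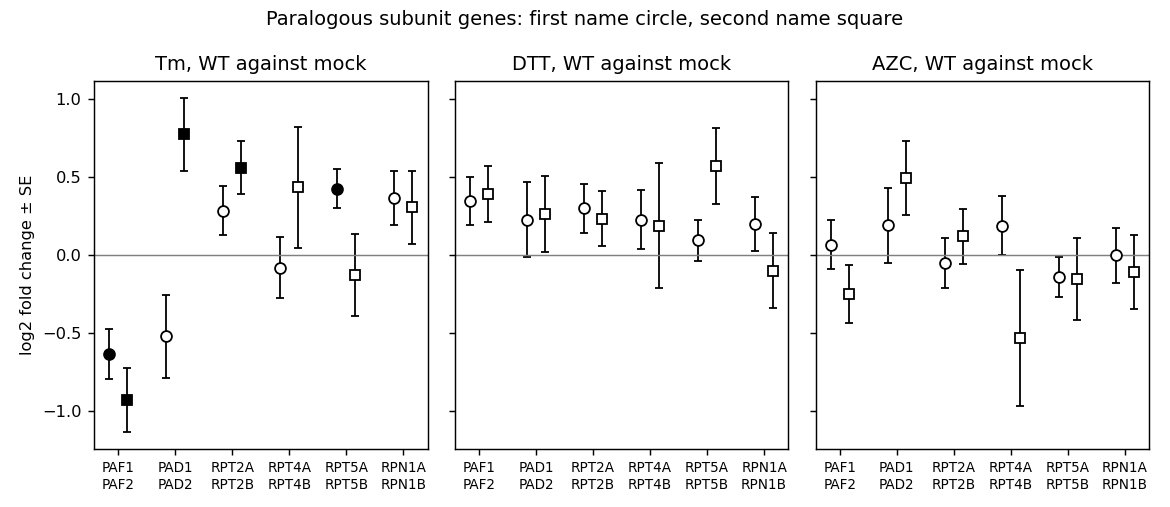
Log2 fold change ± SE of both copies of 6 subunits, those with both genes among the 45 loci, in WT with Tm, DTT and AZC against mock (n = 3 libraries per group). Circles are the first copy named and squares the second, and filled symbols were called. With Tm the PAD copies lie on opposite sides of 0 and both PAF copies are below it, while with DTT 11 of the 12 genes lie above 0.

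Tm was given to the 4 double mutants as well. In bzip17/28 1 of 28 members was called, beside 11.5% of all genes. In bzip28/60 the count was 0, beside 2.39%, with 3 members at an unadjusted p under 0.05 by edgeR and 0 called by DESeq2. In bzip17/60 it was 1, beside 3.07%. In s1p/s2p it was 0, beside 3.55%, with 2 members at an unadjusted p under 0.05 and 0 called by DESeq2. The median log2 change of members was 0.13 in bzip17/28, 0.04 in bzip28/60, 0.12 in bzip17/60 and 0.05 in s1p/s2p. Over all genes it was 0.02, 0.01, 0.01 and 0.00. Log2 changes were positive in 23 of 28 members (82.1%) in bzip17/28 and 22 (78.6%) in bzip17/60, against 51.8% and 51.2% of all genes. In bzip28/60 and s1p/s2p they were positive in 17 each (60.7%), against 51.4% and 50.3%. As with DTT, the members share libraries and are not independent.

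RPT2B rose with Tm in bzip17/28, where it had 65.2, 57.2 and 55.9 CPM with Tm, against 43.4, 44.5 and 40 CPM in mock (0.47 ± 0.16, adjusted p = 0.0408). RPN3A rose with Tm in bzip17/60, where it had 50.6, 48.5 and 44.6 CPM with Tm, against 38.8, 27.7 and 30.6 CPM in mock (0.57 ± 0.17, adjusted p = 0.0498). Neither pair of groups overlapped. Both calls were near the threshold. That of RPT2B was lost in each of the 6 fits that left out 1 library, and that of RPN3A in 5 of 6. The 9 RPT genes together reached 620 to 696 CPM with Tm and 540 to 559 CPM in mock in bzip17/28. The sums were 524 to 546 CPM with Tm and 461 to 506 CPM in mock in bzip28/60, and 477 to 501 CPM with Tm and 420 to 463 CPM in mock in bzip17/60. In s1p/s2p they were 481 to 555 CPM with Tm and 436 to 493 CPM in mock, and in WT 549 to 681 CPM with Tm and 479 to 536 CPM in mock. These sums did not overlap between Tm and mock, apart from those in s1p/s2p, and they carry no test. How often sums of other genes lie apart is not given here. Of the single RPT genes RPT2B and RPT5A were called with Tm in WT, RPT2B in bzip17/28 and none in the other mutants. In WT the sums of the other classes overlapped. The alpha ring had 459 to 479 CPM with Tm and 466 to 549 CPM in mock. The beta ring had 268.5 to 334.4 CPM with Tm and 318 to 350 CPM in mock. The RPN genes had 591 to 638 CPM with Tm and 592 to 629 CPM in mock. In the mutants the other classes overlapped too, apart from the beta ring and RPN genes in bzip17/28 and the RPN genes in bzip17/60. In the Tm libraries of the mutants BIP1 still rose, by 3.13 ± 0.15 in bzip17/28, 0.89 ± 0.14 in bzip28/60, 2.91 ± 0.14 in bzip17/60 and 2.26 ± 0.14 in s1p/s2p. Root markers called lower with Tm numbered 3 of 8 in bzip17/28, 0 in bzip28/60 (6 at an unadjusted p under 0.05, 0 by DESeq2), 2 in bzip17/60 and 3 in s1p/s2p, beside 1 in WT.

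Whether the answer to Tm differed from that of WT was tested as a difference of the 2 responses. It was called for 1 member in bzip17/28 (3.96% of all genes), 2 in bzip28/60 (4.06%), 2 in bzip17/60 (3.72%) and 0 in s1p/s2p (1.95%), where 7 members had an unadjusted p under 0.05 and DESeq2 called 0. PAF2 was called in 3 mutants. Its Tm response was 0.10 ± 0.16 in bzip17/28, 0.10 ± 0.17 in bzip28/60 and 0.10 ± 0.16 in bzip17/60, against -0.93 ± 0.21 in WT. The differences of response were 1.03 ± 0.26 (adjusted p = 0.0124), 1.03 ± 0.26 (adjusted p = 0.0155) and 1.03 ± 0.26 (adjusted p = 0.0203). In s1p/s2p the difference was 0.91 ± 0.26 and missed the threshold (adjusted p = 0.0549). These 4 tests use the same WT libraries, so they are not independent. By the same test 1 of 8 root markers was called lower in each of bzip28/60, bzip17/60 and s1p/s2p, and 1 of 8 shoot markers in bzip28/60.

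In the mutants PAF2 with Tm lay among its own mock values. It had 44.3, 59.1 and 50.8 CPM with Tm, against 42.5, 44.9 and 57.0 CPM in mock in bzip17/28. In bzip28/60 it had 44.0, 37.9 and 34.3 CPM with Tm, against 37.2, 32.0 and 39.0 CPM in mock. In bzip17/60 it had 44.3, 49.7 and 51.9 CPM with Tm, against 50.4, 44.2 and 42.4 CPM in mock. The groups overlapped in all 3 mutants, and every mutant library with Tm was above every WT library with Tm. PAF1 had differences of response of 0.69 ± 0.22 in bzip17/28, 0.68 ± 0.22 in bzip28/60, 0.54 ± 0.22 in bzip17/60 and 0.56 ± 0.22 in s1p/s2p, none of them called (adjusted p = 0.0631, 0.0668, 0.161 and 0.17).

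The Tm response of PAE2 was lower in bzip28/60 than in WT. In bzip28/60 it had 19.8, 20.6 and 26.3 CPM with Tm, against 28.9, 21.8 and 26.4 CPM in mock, and the difference of response was -1.16 ± 0.29 (adjusted p = 0.0132). The call was lost without bzip28/60 mock library 1. In bzip17/60 the difference of response of PAE2 missed the threshold (adjusted p = 0.0525), and its Tm response was -0.03 ± 0.20. The difference was not called in bzip17/28 (-0.68 ± 0.28, adjusted p = 0.179) or in s1p/s2p, where the Tm response was 0.11 ± 0.20. RPN12A differed in bzip17/60, where it had 140, 162 and 160 CPM with Tm, against 138, 140 and 131 CPM in mock (difference of response 0.61 ± 0.18, adjusted p = 0.0378). This call was kept under 8 of 20 alternatives. It was lost without WT Tm library 2 or 3, WT mock library 1 or 3, or any of 5 bzip17/60 libraries. For PAF2, the call in bzip28/60 was lost without WT Tm library 2 or bzip28/60 Tm library 1. The call in bzip17/60 was lost without WT Tm library 2, WT mock library 1 or bzip17/60 Tm library 3. With only the libraries of a comparison fitted, 0 members were called in any of the 4 differences. Without WT Tm library 1 the numbers were 5 in bzip17/28, 3 in bzip28/60, 5 in bzip17/60 and 3 in s1p/s2p.

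Under mock, the mutants were set against WT, which asks whether the genotype alone moves the subunit genes. In bzip17/28 6 of 28 members were called, 5 higher and 1 lower, or 21.4%, beside 17.7% of all genes. In bzip28/60 0 were called, beside 5.04%, with 5 members at an unadjusted p under 0.05 and 0 called by DESeq2. In bzip17/60 2 were called, both lower, beside 8.01%, and in s1p/s2p 2, both lower, beside 7.19%. All 4 comparisons use the same 3 WT mock libraries, so their values are given side by side.

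PBE2 (AT3G26340), a gene for the chymotrypsin-like subunit of the beta ring, had 26.1, 21 and 20 CPM in bzip17/28, against 13.4, 8.98 and 12.3 CPM in WT. The groups did not overlap, and the log2 difference of 0.94 ± 0.25 (adjusted p = 0.00566) was called under all 14 alternatives. In the other mutants PBE2 also lay above every WT library and was not called. Its differences were 0.72 ± 0.25 in bzip28/60, 0.54 ± 0.26 in bzip17/60 and 0.58 ± 0.26 in s1p/s2p (adjusted p = 0.0852, 0.21 and 0.18). RPT6B had 71.3, 77.1 and 76.6 CPM in bzip17/28, against 45.0, 64.3 and 38.5 CPM in WT (0.62 ± 0.16, adjusted p = 0.00534). PAD1 had 25.7, 32.1 and 30.0 CPM in bzip17/28, against 11.6, 26.3 and 16.2 CPM in WT (0.72 ± 0.22, adjusted p = 0.0158). The bzip17/28 libraries were all higher for RPT6B, and the groups overlapped for PAD1. In bzip28/60, bzip17/60 and s1p/s2p RPT6B was at -0.0035, -0.02 and 0.06, and PAD1 at 0.42, 0.66 and 0.43. None of these was called, with PAD1 in bzip17/60 near the threshold (adjusted p = 0.0547).

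PAE2 had 23.5, 28.4 and 26.1 CPM in bzip17/28, against 15.8, 21.4 and 14.5 CPM in WT (0.61 ± 0.21, adjusted p = 0.0368). PAA1 had 69.6, 62.2 and 78.4 CPM in bzip17/28, against 44.4, 55.3 and 45.2 CPM in WT (0.54 ± 0.18, adjusted p = 0.0249). In both genes the bzip17/28 libraries lay above the WT libraries. So did those of bzip28/60, where neither gene was called (0.60 ± 0.21 for PAE2 and 0.43 ± 0.18 for PAA1, adjusted p = 0.0852 and 0.156). In bzip17/60 and s1p/s2p both genes overlapped WT and were not called. WT mock libraries 1 and 3 held the lowest 2 values of 4 of these 5 genes, and library 2 held the lowest of PBE2. Without WT mock library 3 the count in bzip17/28 was 1 member, and without WT mock library 1 it was 3. The calls of PAD1 and PAE2 were also lost without bzip17/28 mock library 2, and those of PAA1 and PAE2 without bzip17/28 mock library 3. In these mock groups 3 of 8 root markers and 2 of 8 shoot markers were called higher in bzip17/28, and the summed root markers were 164 to 184 CPM in bzip17/28 and 120 to 141 CPM in WT. Their part in these differences was not tested.

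PAC1 was lower in 3 of the 4 mutants. It had 107, 103 and 100 CPM in bzip17/28 (-0.47 ± 0.13, adjusted p = 0.00741), 115, 86.6 and 104 CPM in bzip17/60 (-0.49 ± 0.13, adjusted p = 0.011) and 110, 99.6 and 112 CPM in s1p/s2p (-0.41 ± 0.13, adjusted p = 0.0395), against 136, 137 and 155 CPM in WT. Every library of these mutants lay below every WT library. In bzip28/60 it had 125, 119 and 115 CPM, also below WT, and was not called (-0.25 ± 0.13, adjusted p = 0.256). The calls in bzip17/28 and bzip17/60 were lost without WT mock library 3, that in bzip17/60 also without bzip17/60 mock library 2, its lowest, and that in s1p/s2p was lost in each of the 6 fits that left out 1 library.

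RPT5A had 85.3, 71.8 and 80.6 CPM in bzip17/60, against 120, 125 and 129 CPM in WT (-0.66 ± 0.13, adjusted p = 0.000863). In s1p/s2p it had 98, 87.4 and 85.2 CPM (-0.47 ± 0.13, adjusted p = 0.0175). It had 110, 93.1 and 89.2 CPM in bzip28/60 (-0.36 ± 0.13, adjusted p = 0.0895) and 103, 102 and 107 CPM in bzip17/28 (-0.27 ± 0.13, adjusted p = 0.149). In all 4 mutants each library lay below the lowest WT library. The call in bzip17/60 was kept under all 14 alternatives, and that in s1p/s2p was lost without WT mock library 3 or s1p/s2p mock library 2 or 3. The number of members called in bzip17/60 was 1 without WT mock library 3 or bzip17/60 mock library 2. In s1p/s2p it was 0 without WT mock library 3 or s1p/s2p mock library 2 or 3, and 1 without WT mock library 1 or s1p/s2p mock library 1. In s1p/s2p 2 of 8 root markers were called lower (5 at an unadjusted p under 0.05) and 1 of 8 shoot markers higher, with root sums of 50.7 to 76.2 CPM in s1p/s2p and 120 to 141 CPM in WT. In bzip17/60 1 of 8 root markers was called lower and 2 of 8 shoot markers higher, with root sums of 105 to 114 CPM. In bzip28/60 0 markers of either kind were called by edgeR, 4 of each had an unadjusted p under 0.05, and DESeq2 called 0 root markers and 1 shoot marker. The share of reads on no feature was 2.69 to 3.48% in the 24 mutant libraries and 3.24 to 6.32% in the 12 WT libraries, and the part of these shifts in the PAC1 and RPT5A values was not tested. No batch of library making is named in the labels, so genotype and any such batch cannot be told apart.

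**Figure D4:**
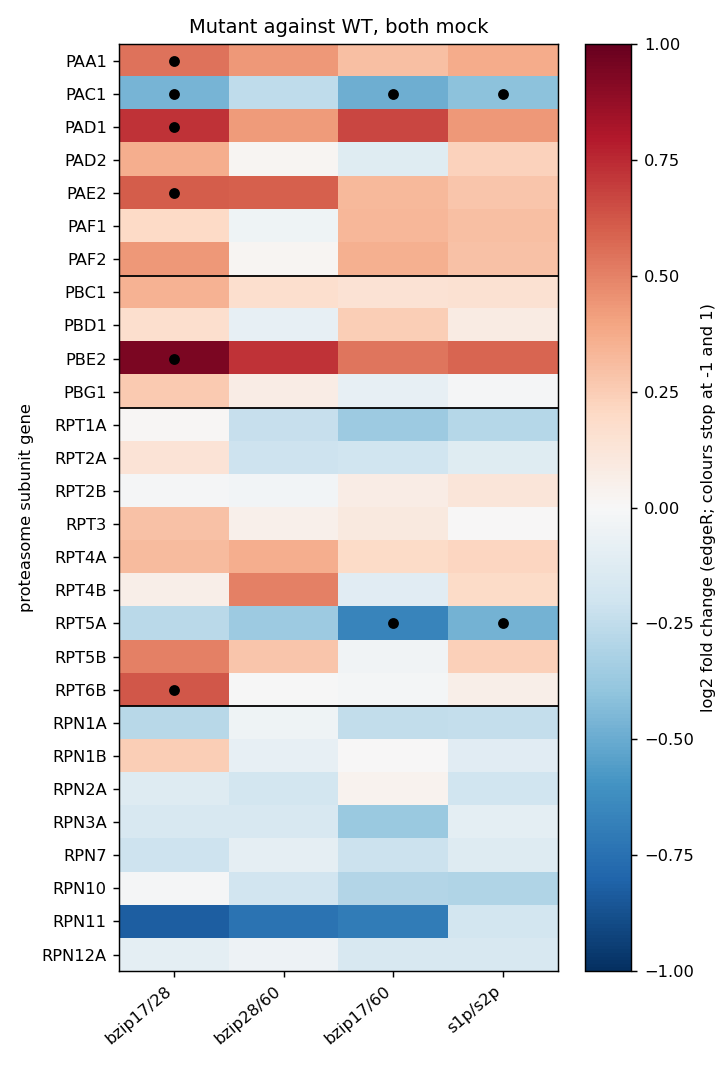
Colour map of log2 fold changes of each double mutant against WT, both under mock, for the 28 tested subunit genes. Dots mark an adjusted p under 0.05. PAC1 and RPT5A are blue in all 4 columns, and 5 of the 6 dots of bzip17/28 are red.

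Over all 12 groups, 20 of the 28 members differed in at least 1 group, or 71.4%, beside 62.9% of all genes tested. RPT5A (adjusted p = 4.71e-09), RPT6B (1.2e-07) and PAF2 (3.55e-07) had the lowest values. PAF2 was called in 7 of the 18 comparisons, RPT6B in 5 and RPT5A in 4, while 9 of the 28 members were called in none. The share of all genes called in none is not given here. The comparisons share libraries, so these counts are not independent. Apart from DTT against AZC, every call of PAF2 used the WT Tm libraries. The summed level of the 28 members averaged 2306 ± 164 CPM in WT with DTT and 2278 ± 105 CPM in bzip17/28 with Tm (SD, n = 3). The other 10 groups had means between 1883 CPM (bzip28/60 mock) and 2072 CPM (bzip17/28 mock). WT with Tm averaged 2015 ± 104 CPM, WT with AZC 2008 ± 15.4 CPM and WT mock 1939 ± 109 CPM. All 3 DTT libraries of WT lay above the highest mock library, while the AZC libraries and 2 of the 3 Tm libraries lay inside the mock range. The RPT genes of WT summed to 666 ± 3.48 CPM with DTT and 615 ± 66.1 CPM with Tm, against 504 ± 29.1 CPM in mock. The alpha ring averaged 573 CPM with DTT and 471 CPM with Tm, against 497.5 CPM in mock. The beta ring averaged 391 CPM with DTT and 308 CPM with Tm, against 330 CPM in mock. The RPN genes averaged 676 CPM with DTT and 620 CPM with Tm, against 608 CPM in mock. Because it is a sum, genes with high counts weigh most in it.

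**Figure D5:**
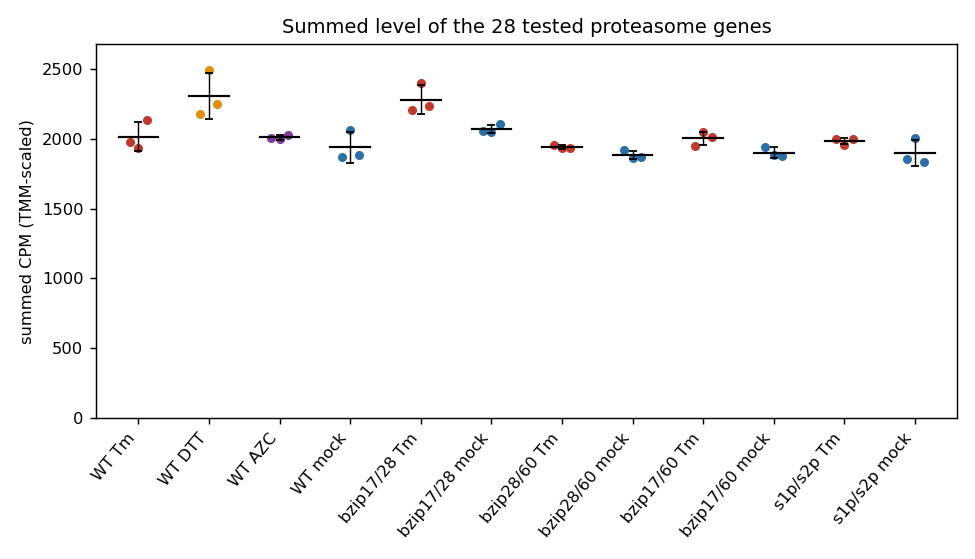
Summed TMM-scaled CPM of the 28 tested subunit genes in every library. Points are libraries, lines are group means and bars are 1 SD (n = 3). WT with DTT (2179 to 2491 CPM) and bzip17/28 with Tm stand highest, and the WT mock libraries lie between 1868 and 2064 CPM.

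Genes that work with the proteasome were read from lists of 11 other subunit loci (4 tested), 13 assembly factors and regulators (8 tested) and 17 ubiquitin, shuttle and CDC48 genes (7 tested). With Tm in WT 1 of 4 other subunits rose, RPN3B, which averaged 16.7 CPM with Tm and 9.23 CPM in mock (0.86 ± 0.30, adjusted p = 0.0388). That call was not made by DESeq2. Of the 8 assembly factors and regulators 0 were called with Tm, DTT or AZC in WT by edgeR or DESeq2, and 2, 1 and 0 had an unadjusted p under 0.05. NAC78 (AT5G04410) averaged 65.3 CPM with Tm, 80.8 CPM with DTT and 80.2 CPM with AZC, against 66.0 CPM in mock, with adjusted p of 0.939, 0.265 and 0.423. NAC53 (AT3G10500) had too few counts to be tested.

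Of the 7 ubiquitin, shuttle and CDC48 genes, UBA1 (AT2G30110), an enzyme that activates ubiquitin, had 390, 158 and 298 CPM with Tm, against 455, 488 and 375 CPM in mock. It fell by 0.64 on the log2 scale (SE 0.17, adjusted p = 0.0073), with the lowest value in Tm library 2 and overlapping groups. DSK2A (AT2G17190), a shuttle protein with a near-identical neighbour, had 44.7, 87.1 and 71.1 CPM with Tm, against 49.9, 41.5 and 50.7 CPM in mock. It rose with Tm (0.51 ± 0.17, adjusted p = 0.0304), with overlapping groups and its lowest Tm value in library 1. CDC48A (AT3G09840), the ATPase that pulls ubiquitin-tagged proteins from the ER membrane, averaged 310 CPM with DTT and 333 CPM with AZC, against 231.5 CPM in mock. Both were rises, of 0.43 ± 0.13 (adjusted p = 0.0201) and 0.52 ± 0.13 (adjusted p = 0.00883). CDC48B (AT3G53230) had 110, 104 and 121 CPM with AZC, against 14.0, 17.3 and 17.8 CPM in mock (2.76 ± 0.19, adjusted p = 1.82e-16).

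Under mock, UMP1A (AT1G67250), a factor for assembly of the core, was higher in bzip17/28 (64.9 CPM, against 43.3 CPM in WT, 0.59 ± 0.16, adjusted p = 0.00786). UMP1A had 58.7, 51.4 and 62.8 CPM in bzip28/60, 64.8, 60.7 and 47.5 CPM in bzip17/60 and 60.7, 63.5 and 49.9 CPM in s1p/s2p. The WT values were 44.4, 50.5 and 35.1 CPM, and none of these was called. In bzip17/28 2 of the 7 ubiquitin, shuttle and CDC48 genes were also called higher, and DESeq2 called 2. They are not named here. RPN2B was lower in bzip17/60 (20.5, 21.4 and 19.4 CPM) and in s1p/s2p (29.6, 20.4 and 24 CPM), against 43.8, 36.6 and 32.3 CPM in WT. Its differences were -0.87 ± 0.20 (adjusted p = 0.00297) and -0.60 ± 0.19 (adjusted p = 0.044). In bzip28/60 RPN2B had 28.6, 24.3 and 26.8 CPM, and in bzip17/28 30.1, 29.3 and 26.1 CPM. These also lay below every WT library and were not called. RPN3B was higher in bzip17/60 (0.94 ± 0.28, adjusted p = 0.029), with overlapping groups. UBA2 (AT5G06460), a copy of UBA1, was higher in bzip17/60 and s1p/s2p, at 1.05 ± 0.23 (adjusted p = 0.00297) and 0.76 ± 0.24 (adjusted p = 0.041). UBA2 had 21.5, 17.9 and 27.6 CPM in bzip28/60, where it was not called, and 24.8, 23.9 and 17.8 CPM in bzip17/28. Both groups overlapped the 18.2, 13.1 and 11.2 CPM of WT. The calls of RPN2B and UBA2 in s1p/s2p were not made by DESeq2.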

How the data were processed

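The authors deposited whole-number HTSeq counts per transcript model for 36 libraries. HTSeq 0.6.0 is listed with Trim Galore 0.2.8, SAMtools and TopHat2 2.1.1, per the submitters' processing notes. Build, annotation release and strand setting are not given in the sources used here, and reads of overlapping or antisense genes may therefore be mixed. Reads set aside as ambiguous (39.9 to 42.8% of assigned and ambiguous reads) and reads on no feature stayed out of library sizes. Ambiguous reads are shared by several models, of 1 gene or of overlapping genes, and the counts do not split the 2 kinds. Counts were summed per locus and genes were kept with filterByExpr (minimum count 10). All 36 libraries were fitted together in edgeR 4.0.16 (R 4.3.3, TMM factors, the robust quasi-likelihood F-test, with 24 degrees of freedom left), with Benjamini-Hochberg adjustment over 10480 genes. The fit was also run on counts simulated from the fitted model, with changes planted in WT with DTT. Every group had the same spread there, so that run cannot check calls that use the more variable WT Tm libraries. DESeq2 1.42.0 and limma 3.58.1 (voom, a spread per group) were alternatives, beside no count filter, library size alone, relative log expression factors, loci with 1 model, only the libraries of a comparison, a repeat block and each library left out.

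Whether repeats came from separate cultures is not in the labels, and p-values then measure only the spread between these libraries, which can be technical. No library pair of a group agreed within sampling noise (chi-square over its degrees of freedom 1.5 to 12.1). The members and lists were chosen with earlier results of these data known, and subunit names of some loci were written from memory. Called members were named with values per library, and members not called by the most counted of each class. Of the other lists the called genes with the lowest p were named, in some comparisons only. Gene positions, promoters and symbols came from RefSeq TAIR10.1 by locus tag. Protein sequences were not used here.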

Additional observations from a re-analysis of the deposited data

Results flagged for a closer look

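5 differences between the Tm response of a mutant and that of WT passed edgeR's test of the difference itself, on the log2 scale and adjusted over all genes. For PAF2 the difference, mutant response minus WT response, was 1.0297 in bzip17/28, 1.0349 in bzip28/60 and 1.0295 in bzip17/60. PAF2 fell with Tm in WT and was not called with Tm in these mutants. PAE2 had a difference of -1.1584 in bzip28/60, and it rose with Tm in WT. RPN12A had a difference of 0.6096 in bzip17/60, and it fell with Tm in WT. The 5 values share the 6 WT libraries with Tm and mock.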

How the results depend on the processing

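No called log2 value of a member changed sign in 698 alternative values of 48 calls, 180 of these values lost the call, and 9 calls were kept under every alternative. With only the libraries of the comparison fitted, the counts were 0 for Tm in WT (8 in the full fit), 0 for AZC in WT (1), 3 for Tm against DTT (10), 0 for Tm against AZC (7), 1 for Tm in bzip28/60 (0), 0 for Tm in bzip17/60 (1), 1 for s1p/s2p against WT under mock (2), and 0 for the differences of response in bzip17/28 (1), bzip28/60 (2) and bzip17/60 (2). With a spread per group they were 2 for Tm in WT, 5 for Tm against DTT, 2 for Tm against AZC, 3 for Tm in bzip17/28 (1), 1 for Tm in bzip28/60, and 0, 1 and 0 for those differences of response. With no filter on low counts they were 5 for Tm in WT, 0 for Tm in bzip17/28, 0 for Tm in bzip17/60, 0 for s1p/s2p against WT, 2 for the difference of response in bzip17/28 and 1 for that in bzip17/60. Library size alone gave 0 for s1p/s2p against WT and 2 for the difference of response in bzip17/28, DESeq2 gave 0 for Tm in bzip17/28, and loci with 1 model gave 1 for the difference of response in s1p/s2p (0). The cause was not tested. Counts of members under an alternative, here and above, stand without the count over all genes. The exceptions are Tm in WT with its libraries alone and with a spread per group. A change in the members is thus not told apart from a change in the calling of all genes. With library size alone all genes shifted at the median by 0.103 for Tm in bzip17/60 and by 0.109 for bzip17/28 against WT under mock, 8 members were called higher and 1 lower in bzip17/28 against WT, 1 higher and 2 lower in bzip17/60 against WT, 7 higher and 3 lower for Tm in WT, 3 higher and 4 lower for Tm against AZC, and 2 higher and 1 lower for the difference of response in bzip28/60.

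Leaving out 1 library at a time gave 3 to 12 members for Tm in WT, 2 to 4 for DTT, 0 to 1 for AZC, 5 to 13 for Tm against DTT, 4 to 12 for Tm against AZC and 2 to 4 for DTT against AZC. It gave 0 to 1 for Tm in bzip17/28, 0 to 0 in bzip28/60, 0 to 1 in bzip17/60 and 0 to 0 in s1p/s2p. Under mock it gave 1 to 7 for bzip17/28, 0 to 0 for bzip28/60, 1 to 3 for bzip17/60 and 0 to 2 for s1p/s2p against WT. For the differences of response it gave 1 to 5 in bzip17/28, 1 to 3 in bzip28/60, 0 to 5 in bzip17/60 and 0 to 3 in s1p/s2p.

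Repeat numbers did not pair the libraries (correlations of deviations from -0.15 to 0.198). With the repeat number as a block the count was 0 for Tm in bzip17/60 and 8 for Tm in WT. Depth limits the low members, such as RPN11 with 0 to 14 counts in a library.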
